A study of Homo sapiens with 6 samples.

Results

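In T24 cells, 7 of the measured genes for enzymes that supply NADPH or form the pentose phosphate pathway were chosen for description: IDH1, IDH2, ME1, PGLS, PGD, TKT and TALDO1. They were picked by name and followed through every probe set annotated to 1 of them and to no other gene. This gave 17 probe sets of the 44988 with exactly 1 gene, and 7 genes of 18132. The genes were proposed with the differences between MAP30 and control in these arrays already known, so those differences are given as a description, without p-values.

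T24 is an established line of human bladder carcinoma, grown in DMEM with 10% serum. The 3 control arrays carry RNA of cells labelled as normal T24, and the 3 MAP30 arrays that of cells exposed to MAP30 at 10 µg/ml for 48 hours. MAP30, from bitter melon, belongs to the ribosome-inactivating proteins, plant enzymes that damage ribosomal RNA. The treatment of the control cells, and whether replicates were separate cultures, is not stated in the sources used here, so errors measure the spread between these arrays, which may be technical.

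NADPH is the cell's carrier of electrons for biosynthesis and for the repair of oxidised glutathione and thioredoxin. The oxidative branch of the pentose phosphate pathway makes it in the cytosol from glucose 6-phosphate, and the non-oxidative branch shuffles the remaining sugars between ribose 5-phosphate and glycolysis. Isocitrate dehydrogenases and malic enzymes make NADPH from citrate and malate, linking it to the mitochondrion. Several of these genes are known targets of NRF2, the transcription factor of the antioxidant response, or of the sterol regulatory factors SREBP.

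The stretches upstream of 3 members are shown because they hold a match to the core of the short element through which NRF2 acts. A part of NRF2 in the differences between MAP30 and control was not tested. The core was searched as TGACNNNGC on both strands, in the 250 bases before each start in RefSeq's promoters of build GRCh38.p14, and is in capitals. ME1 lies on the minus strand (chr6:83431052-83431301), as does IDH1 (chr2:208255072-208255321). PGD lies on the plus strand (chr1:10398814-10399063), and its match is on the opposite strand, so that GCNNNGTCA is read.
ME1: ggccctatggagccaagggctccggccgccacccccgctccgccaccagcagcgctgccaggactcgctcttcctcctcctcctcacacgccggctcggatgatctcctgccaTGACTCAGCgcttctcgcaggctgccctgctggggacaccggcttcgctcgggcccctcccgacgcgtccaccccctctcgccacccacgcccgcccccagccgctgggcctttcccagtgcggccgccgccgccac
IDH1: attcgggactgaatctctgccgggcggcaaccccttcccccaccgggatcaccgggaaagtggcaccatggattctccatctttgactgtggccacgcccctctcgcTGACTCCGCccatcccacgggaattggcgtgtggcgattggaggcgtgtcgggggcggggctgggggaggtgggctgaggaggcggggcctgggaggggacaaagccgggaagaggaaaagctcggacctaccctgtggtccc
PGD: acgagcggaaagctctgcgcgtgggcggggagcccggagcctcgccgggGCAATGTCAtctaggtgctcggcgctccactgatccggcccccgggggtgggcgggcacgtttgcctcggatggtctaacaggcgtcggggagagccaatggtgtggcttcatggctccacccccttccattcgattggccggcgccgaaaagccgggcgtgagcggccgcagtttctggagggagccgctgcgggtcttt

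All 7 genes were found in that table, IDH1 with 2 starts, of which the one further inside the gene held no match. For IDH2 the only start listed lies inside the gene, so its usual promoter was not searched. The match ended 128 bases before the start in ME1, 134 in IDH1 and 192 in PGD. The core occurred in 10.9% of 35116 promoters and in 3 of the 8 of these genes. In ME1 it overlaps an AP-1 site, TGACTCA, found in 4.20% of promoters and in 1 of these 8. The sterol response element TCACNCCAC (0.883% of promoters) and the E-box CACGTG (6.34%) were searched too and had 0 matches among them. A match describes the letters of the window and is not evidence of binding.

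Levels cannot be given. The deposited log2 values are centred, each probe set on its own median of the 6 arrays, so only differences between arrays remain, and neither the order of the genes by abundance nor the identity of the line could be checked from markers. In a probe set whose groups do not overlap, the lowest array of one group and the highest of the other then stand at equal distances from 0 by construction. The groups differed across the whole array: 94.6% of the variance lay on the first principal component, 57.5% of genes were called and in 62.6% the groups did not overlap. The log2 ratio of 3' over 5' control probe sets, a sign of RNA quality, was also formed from centred values. Its level therefore cannot show how intact the RNA was, and only its difference between groups can be read. It ran from -0.10 to -0.06 in control and from 0.07 to 0.08 with MAP30 for ACTB, a difference of 0.16. For GAPDH it ran from -0.03 to -0.01 and from 0.02 to 0.03, a difference of 0.04. Its part in the differences below was not tested. Of calls, 46.8% were rises as deposited, 21.1% when arrays were centred on spiked hybridization controls and 70.3% when centred on spiked poly-A controls. The median difference of all genes was -0.02, -0.23 and 0.14 on these scales. Of 9 leukocyte, fibroblast and endothelial markers CD14 (-0.26) was lower and COL1A1 (0.14) higher as deposited, while 8 were lower with hybridization-control and 8 higher with poly-A-control centring. Of 4 markers of urothelial lines KRT7 and KRT8 were lower and EPCAM higher. In bulk RNA, fewer cells of a kind and less RNA per cell cannot be told apart.

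IDH1, IDH2, ME1, PGD and TALDO1 were lower with MAP30, by 1.61-fold to 6.15-fold, with the same direction in every probe set. TKT had probe sets in both directions and PGLS differed by less than the spread between arrays. By limma with Benjamini-Hochberg adjustment over all genes at 0.05, 6 of the 7 genes were called lower and 0 higher. Among all genes 30.6% were called lower and 26.9% higher, and nothing is read from that contrast since the genes were proposed from it. The median log2 difference of the 7 was -0.75, beside -0.02 over all genes. Of their 17 probe sets 15 were called lower, 1 higher and 1 was not called, where 30.3% of all probe sets were called lower and 26.5% higher. The groups did not overlap in 16 of the 17, against 62.3% of all probe sets. With hybridization-control centring all 7 genes were called lower, where 63.7% of all genes were called lower and 17.0% higher. With poly-A-control centring 5 were lower, PGLS was higher and TKT was not called, where 20.7% of all genes were called lower and 49.1% higher.

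**Figure D1:**
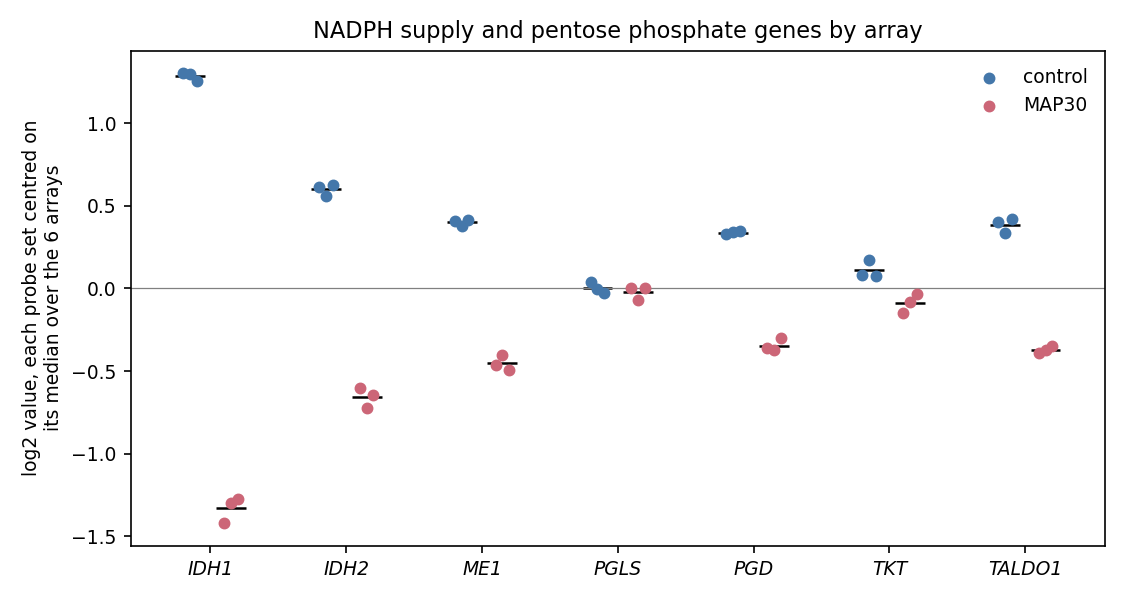
Log2 values of the 7 genes on each array (vertical axis, mean over probe sets, each centred on its median over the 6 arrays), with 3 control arrays in blue, 3 MAP30 arrays in red and bars at the group means. The groups lie far apart for IDH1, whose controls stand between 1.26 and 1.30 and MAP30 arrays between -1.42 and -1.28, and overlap for PGLS.

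Isocitrate dehydrogenase is the first source of NADPH considered. IDH1 encodes the enzyme of the cytosol and peroxisome, which converts isocitrate to 2-oxoglutarate. On the centred log2 scale its mean over probe sets was 1.30, 1.30 and 1.26 on the control arrays and -1.42, -1.30 and -1.28 on the MAP30 arrays. Every MAP30 array was far below every control array. The difference was -2.62 ± 0.05 (SE, n = 3 per group), with an SD of 0.02 in control and 0.08 with MAP30, which is 6.15-fold lower. Only 4 of 18132 genes had a more negative difference. The 3 probe sets of IDH1 stood at -2.55 (11718474_a_at), -2.65 (11746174_s_at) and -2.66 (11718475_s_at), a range of 0.12. Both of the class _s_at, which can take signal from transcripts of different genes, thus differed little from the other. With quantile normalization of the centred values IDH1 was at -3.59.

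IDH2 encodes the mitochondrial isozyme of the same reaction. Its values were 0.62, 0.56 and 0.63 in control and -0.60, -0.73 and -0.64 with MAP30. The groups were again apart, at less than the distance seen for IDH1. The difference was -1.26 ± 0.04 (SE, n = 3 per group), or 2.39-fold lower, and 359 genes had a more negative one. Of its 4 probe sets, 3 lay between -1.43 and -1.35. The fourth, 11758723_at, was at -0.85 ± 0.11 and scattered more, with 0.58, 0.27 and 0.42 in control and -0.27, -0.42 and -0.61 with MAP30. Even there no MAP30 array reached a control array. IDH1 and IDH2 were the only members called lower with at least a 2-fold change, which 4.13% of all genes met.

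ME1, the cytosolic malic enzyme, makes NADPH while it turns malate into pyruvate. It measured 0.41, 0.38 and 0.41 in control and -0.46, -0.41 and -0.49 with MAP30. Arrays of a group stood within a narrow band and the bands were apart. The difference was -0.86 ± 0.04 (SE, n = 3 per group), 1.81-fold lower, and its 2 probe sets gave -0.92 and -0.79.

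In the oxidative branch, PGLS hydrolyses 6-phosphogluconolactone and PGD, the 6-phosphogluconate dehydrogenase, releases the second NADPH of the branch and yields ribulose 5-phosphate. PGD was at 0.33, 0.34 and 0.35 in control and at -0.36, -0.37 and -0.30 with MAP30. Its groups did not overlap. The difference was -0.68 ± 0.03 (SE, n = 3 per group), 1.61-fold lower, with -0.71 and -0.66 in its 2 probe sets, a smaller gap than in ME1 or TALDO1, which also have 2 probe sets.

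PGLS had a single probe set, with 0.0377, -0.00013 and -0.0303 in control and 0.00058, -0.0721 and 0.00013 with MAP30. These groups overlapped. The difference of -0.03 ± 0.04 (SE, n = 3 per group) was smaller than its error as deposited. It was called lower at -0.23 with hybridization-control centring and higher at 0.14 with poly-A-control centring, values close to the median of all genes on those scales. The neighbouring step PGD kept its direction on both, at -0.89 and -0.52.

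In the non-oxidative branch, TALDO1 encodes transaldolase, which moves three-carbon units between sugar phosphates. It stood at 0.40, 0.34 and 0.42 in control and at -0.39, -0.37 and -0.35 with MAP30. All MAP30 arrays were lower. The difference was -0.75 ± 0.04 (SE, n = 3 per group), 1.69-fold lower. Its 2 probe sets agreed in direction and differed in size, at -0.96 (11715447_at) and -0.55 (11761067_at).

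TKT encodes transketolase, which moves two-carbon units in the same branch. Its 3 probe sets did not move together. In 11754945_x_at the values were 0.28, 0.34 and 0.25 in control and -0.32, -0.29 and -0.25 with MAP30, a difference of -0.57 ± 0.04. In 11756952_a_at the difference was -0.59 ± 0.05. In both, all MAP30 arrays lay below all control arrays. In 11719934_a_at the values were -0.32, -0.19 and -0.28 in control and 0.19, 0.30 and 0.43 with MAP30, a difference of 0.57 ± 0.07, so that all MAP30 arrays lay above all control arrays. The opposing differences were of nearly the same size, 1.49-fold and 1.50-fold down and 1.48-fold up. Which transcript each probe set reads was not tested.

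The gene mean of TKT hides this split. It was 0.08, 0.17 and 0.08 in control and -0.15, -0.08 and -0.03 with MAP30, a difference of -0.20 ± 0.05 (SE, n = 3 per group). The call of TKT as lower therefore rests on how probe sets are combined. The median over probe sets gave -0.56, and leaving out classes _s_at and _x_at, which removes 1 of the falling probe sets, gave -0.01 and no call. With poly-A-control centring the mean was -0.03 and was not called.

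**Figure D2:**
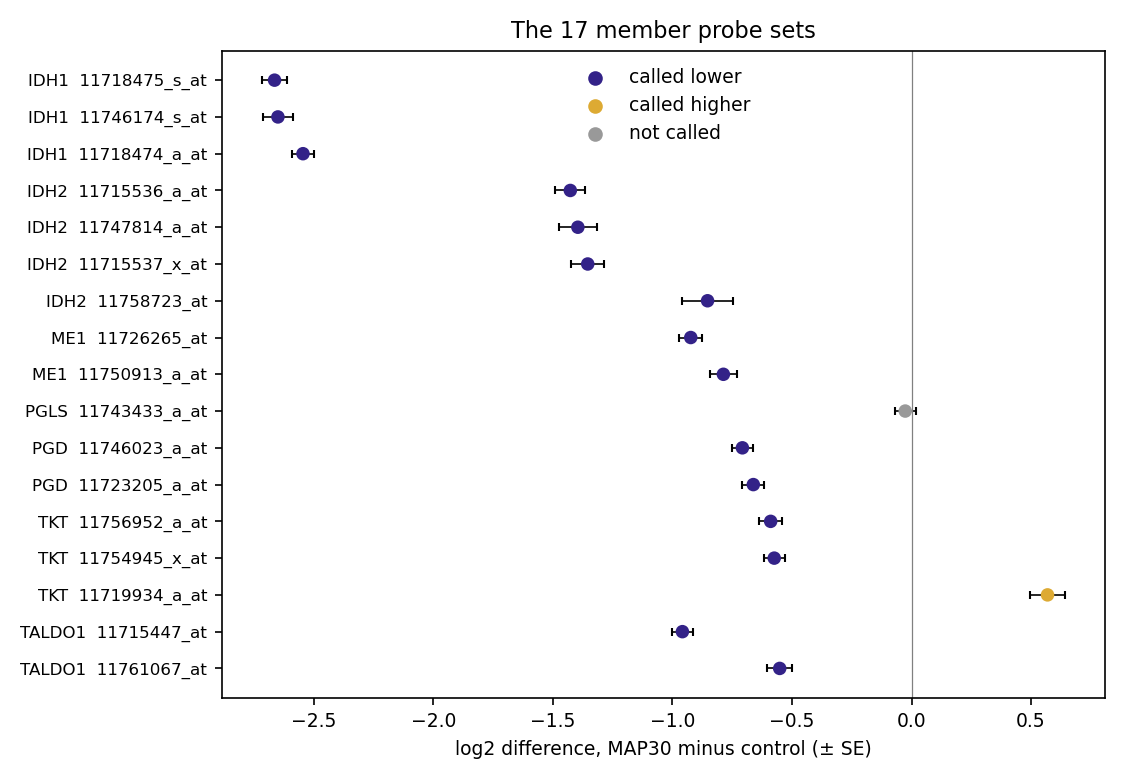
Log2 difference between MAP30 and control (horizontal axis, ± SE, 3 arrays per group) of each of the 17 probe sets, coloured by the limma call over all probe sets. The 3 IDH1 probe sets sit together near -2.6, and 1 TKT probe set stands at 0.57 while the other 2 stand at -0.57 and -0.59.

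**Figure D3:**
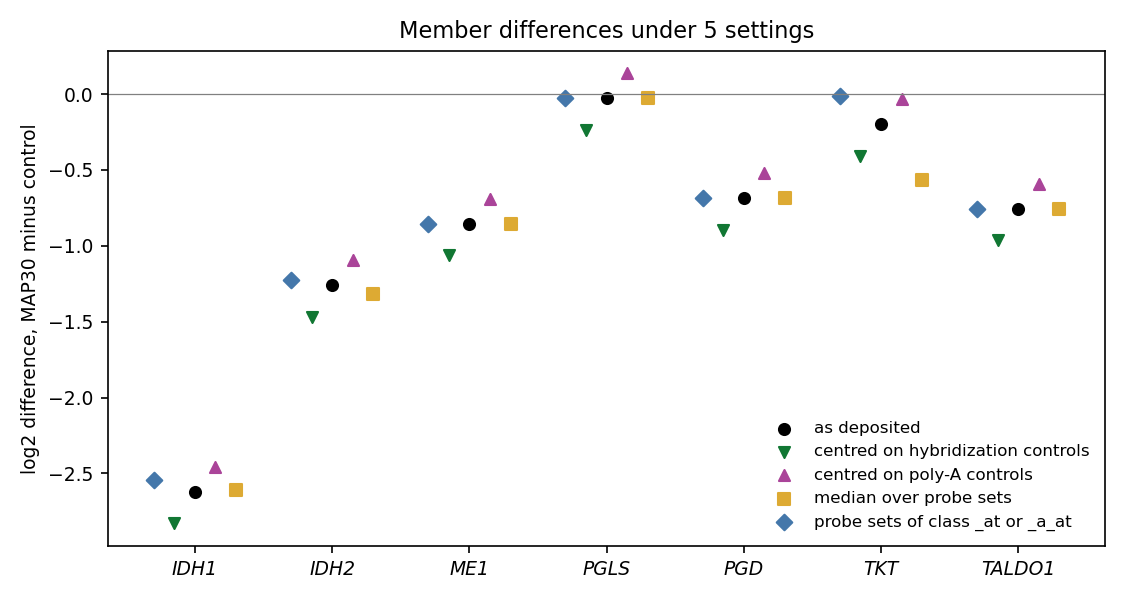
Log2 difference between MAP30 and control (vertical axis) of each gene as deposited, with arrays centred on either set of spiked controls, with the median over probe sets, and without classes _s_at and _x_at. IDH1, IDH2, ME1, PGD and TALDO1 stay below 0 under all 5, PGLS changes side, and TKT runs from -0.56 to -0.01.

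Other genes of these pathways were taken from lists made from their biochemistry, with earlier results of these data known. Their counts and p-values are therefore a description and no independent support. Some genes of the lists were not analysed here. Pentose phosphate genes, further NADPH supply genes and genes around citrate come to 30 measured genes, of which limma called 18 lower and 4 higher. With hybridization-control centring this was 24 and 2, and with poly-A-control centring 15 and 8. Their median log2 difference was -0.23, beside -0.02 over all genes. Users of NADPH (11 genes) and regulators (9 genes) are counted apart. Each count below is to be read against the calls among all genes: 30.6% lower and 26.9% higher as deposited, 63.7% and 17.0% with hybridization-control centring, and 20.7% and 49.1% with poly-A-control centring. Adjusted p-values in what follows are from limma with Benjamini-Hochberg adjustment over all 18132 genes, with n = 3 per group.

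Of 11 other pentose phosphate genes 6 were lower and 1 higher as deposited, 9 and 1 with hybridization-control and 6 and 2 with poly-A-control centring. The genes that interconvert the pentose phosphates were lower: RPIA, the ribose 5-phosphate isomerase, fell by 0.81 (± 0.04 SE, adjusted p = 7.6e-07) and RPE, the epimerase, fell by 0.28 (± 0.03 SE, adjusted p = 0.000134). Phosphoribosyl pyrophosphate synthetases, which take ribose 5-phosphate into nucleotide synthesis, fell too. PRPS2 was 3.26-fold lower (-1.70 ± 0.04 SE, adjusted p = 4.95e-08), and PRPS1 was 1.59-fold lower. SHPK, the sedoheptulose kinase, was at -0.95, and DERA, an aldolase of deoxyribose phosphate, at -0.30.

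RBKS, which encodes ribokinase and brings free ribose into the pathway, was the exception that rose, at 1.77 ± 0.04 (adjusted p = 3.26e-08). The rise lay in 1 of its 2 probe sets. In 11741192_a_at the values were -1.70, -1.67 and -1.69 in control and 1.67, 1.77 and 1.71 with MAP30, which is 10.6-fold higher. In 11760736_at the difference was 0.14 ± 0.05, with groups that met at 0 and an adjusted p of 0.063 by limma over all probe sets. TKTL1, a transketolase-like gene, was at 0.17 and not called, though 2 of its 3 probe sets were called higher. It was called with poly-A-control centring (0.33) and with the median over probe sets (0.20), and without control replicate 3 (0.23). Its relative TKTL2 (-0.07), PGM2 (-0.07) and H6PD (-0.06), the reticulum enzyme of the oxidative steps, were not called as deposited. They were called lower with hybridization-control centring (-0.28, -0.28 and -0.27), and with poly-A-control centring stood at 0.09, 0.09 and 0.10 without a call. PGM2 was also called lower with the median over probe sets (-0.17) and with classes _at and _a_at only (-0.16). Both H6PD and PGM2 had probe sets called in opposite directions, 2 lower and 1 higher of 7 for H6PD and 3 lower and 1 higher of 5 for PGM2.

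Among 10 further genes of NADPH supply 6 were lower and 2 higher, which was 7 and 1 with hybridization-control and 5 and 4 with poly-A-control centring. NNT, the transhydrogenase of the inner mitochondrial membrane, was 2.12-fold lower (-1.08 ± 0.04 SE, adjusted p = 1.54e-07), with all 5 probe sets called lower. The kinases that make NADP from NAD were both lower, the cytosolic NADK at -0.67 ± 0.05 (adjusted p = 6.23e-06) and the mitochondrial NADK2 at -0.73 ± 0.05 (adjusted p = 4.33e-06). All 4 probe sets of NADK and all 6 of NADK2 were called lower.

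The folate enzymes split. MTHFD1, the cytosolic enzyme, was at -0.80 and MTHFD2, a mitochondrial one, at -0.58, with all 5 probe sets of MTHFD2 lower. MTHFD2L, its mitochondrial relative, rose by 0.47 (± 0.05 SE, adjusted p = 4.94e-05) and ALDH1L2 by 0.25 (± 0.04 SE, adjusted p = 0.000945), though ALDH1L2 was at 0.04 and not called with hybridization-control centring. ALDH1L1 (0.05) was not called. Of the mitochondrial malic enzymes, ME3 was lower at -0.19, and at -0.02 without a call with poly-A-control centring. ME2 stood at 0.05 without a call, at -0.16 and called with hybridization-control and at 0.21 and called with poly-A-control centring.

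Around citrate and isocitrate 6 of 9 genes were lower and 1 higher, 8 and 0 with hybridization-control and 4 and 2 with poly-A-control centring. ACO1, the cytosolic aconitase that supplies isocitrate to IDH1, was 1.90-fold lower (-0.93 ± 0.05 SE, adjusted p = 3.05e-06) as the mean of 3 probe sets. These stood at -0.63, -0.65 and -1.51, all called lower, and their median gave -0.67. ACLY, which splits cytosolic citrate into acetyl-CoA, was 1.86-fold lower (-0.89 ± 0.03 SE, adjusted p = 2.3e-07). SLC25A1, the mitochondrial citrate carrier, was at -0.60 as the mean of 4 probe sets, which stood at -1.26, -0.86, -0.27 and 0.0070. The first pair was called lower. Without classes _s_at and _x_at the last alone is left, whose SD was 0.24 in control and 0.23 with MAP30.

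The subunits of the NAD-linked isocitrate dehydrogenase, which makes NADH and not NADPH, had differences between -0.18 and 0.15. IDH3A was at -0.09 and not called, IDH3G at -0.18 and IDH3B at 0.15. IDH3G lost its call with poly-A-control centring (-0.02) and IDH3B with hybridization-control centring (-0.06). GLUD1, glutamate dehydrogenase, was at -0.42 and citrate synthase gene CS at -0.00051 without a call. OGDH was at -0.12, a call lost without any 1 of 5 arrays (-0.14 to -0.10), all but MAP30 replicate 1. Of its 4 probe sets 1 was called lower. The OGDH call was also lost with the median over probe sets (-0.10) and with classes _at and _a_at only (-0.05). It was kept with hybridization-control centring (-0.33).

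Of 11 genes of enzymes that spend NADPH, directly or through other proteins, 9 were lower and 1 higher as deposited, with a median log2 difference of -0.83. This became 10 and 1 with hybridization-control and 7 and 1 with poly-A-control centring. GSR, glutathione reductase, was 1.78-fold lower (-0.83 ± 0.04 SE, adjusted p = 9.87e-07), and NQO1, a quinone reductase, 2.26-fold lower. TXNRD1, the cytosolic thioredoxin reductase, was at -0.56, and the mitochondrial TXNRD2 rose 2.11-fold (1.07 ± 0.04 SE, adjusted p = 1.61e-07) with 4 of 5 probe sets higher. The ribonucleotide reductase genes RRM1 (-1.14) and RRM2 (-1.35), counted as indirect users, and the sterol synthesis genes DHCR7 (-1.69) and SQLE (-0.88) were lower. FASN, fatty acid synthase, was at -0.21 and lost its call with poly-A-control centring (-0.05). BLVRB (-0.08) was not called. POR, the reductase of cytochrome P450, was at -0.13; its call was lost with poly-A-control centring (0.03) and without any 1 of 5 arrays (-0.14 to -0.10), all but MAP30 replicate 3.

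The regulators, which are genes of transcription factors known to drive these enzymes, genes of their partners and the phosphatase gene TIGAR, went both ways. Of the 9, 4 were lower and 4 higher as deposited and with hybridization-control centring, and 4 and 5 with poly-A-control centring. NFE2L2, which encodes NRF2, was 1.61-fold higher (0.68 ± 0.03 SE, adjusted p = 7.33e-07), as were MAFG, its small MAF partner (1.06), and BACH1, a repressor at the same element (0.69). KEAP1, the adaptor that marks NRF2 for degradation, was at -0.82. The sterol regulators SREBF2 (-0.66), SCAP (-0.50) and SREBF1 (-0.35) were lower, and PPARG (0.91) was higher. TIGAR, a phosphatase that favours the pentose phosphate pathway, was at 0.09 without a call, with 1 probe set called higher and 1 lower.

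**Figure D4:**
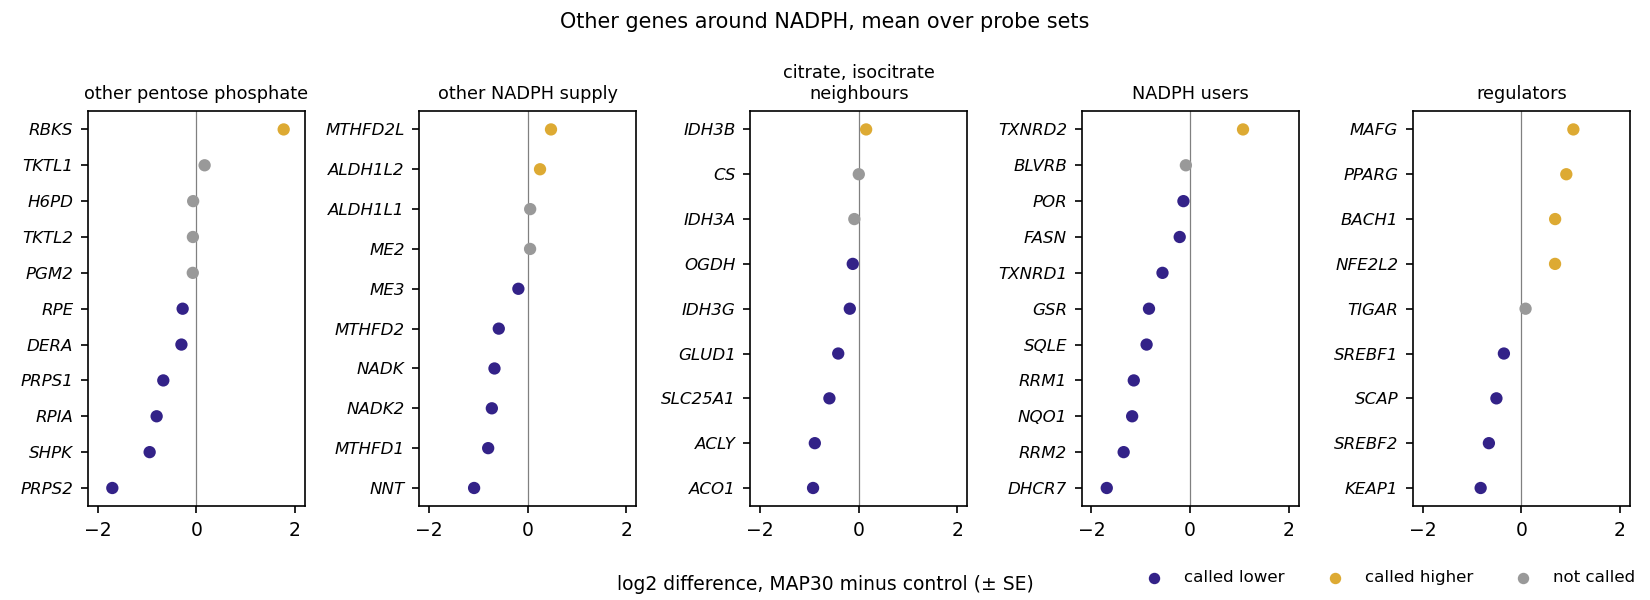
Log2 difference between MAP30 and control (horizontal axis, mean over probe sets, ± SE, 3 arrays per group) of the measured genes in 5 lists, coloured by the limma call over all genes; error bars are mostly hidden by the points. PRPS2 at -1.70 and RBKS at 1.77 are the extremes of the pentose phosphate list, and TXNRD2 at 1.07 is the called rise among the NADPH users.

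The genes whose profile lay closest to that of IDH1 were SCD, PIR, POLE2, RAB40B and FAM111B, by the mean absolute log2 distance over the 6 arrays after each gene's mean was removed. The distance was 0.03 for SCD and 0.08 for FAM111B. Their differences ran from -2.62 to -2.46, next to -2.62 for IDH1. With little spread inside the groups, this distance mostly follows the size of the difference. Shared regulation was not tested.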

How the data were processed

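RNA of 3 control and 3 MAP30 samples was amplified from the 3' end, labelled with biotin and hybridised to Affymetrix arrays, per the labels' protocols. The authors deposited log2 values per probe set, centred on each probe set's median; RMA and MAS5 are named, without role, in the submitters' processing notes. The base of the logarithm is not stated and was taken to be 2, on which every fold rests. Precision is limited by the number of arrays.

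Probe sets with exactly 1 gene in the platform annotation were averaged per gene. MAP30 was compared with control by limma 3.58.1 (R 4.3.3), using lmFit and eBayes, and p-values were adjusted by Benjamini-Hochberg over the 18132 genes, or the 44988 probe sets, at 0.05. Tests are two-sided. The fit was tested on simulated data. Tables were made with Python 3.11.15, pandas 2.3.3 and numpy 2.4.6 and drawn with matplotlib 3.10.9.

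The 7 genes and the lists were chosen with earlier results of these data known. All 7 are named with every probe set, and any gene of the lists could be named. Alternatives were centring on 18 hybridization or 24 poly-A control probe sets, quantile normalization, robust eBayes, the replicate number as a block, the median over probe sets, classes _at and _a_at only, and leaving out each array. Some items are not reported here.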

Additional observations from a re-analysis of the deposited data

How the results depend on the processing

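The scale of the arrays was the choice that moved most counts. With hybridization-control centring 11558 genes were called lower and 3087 higher, in place of 5553 and 4878, and 25944 and 7933 probe sets in place of 13614 and 11922. With poly-A-control centring 8906 genes and 19767 probe sets were called higher, and so were 1 of the 7 genes, 2 of their 17 probe sets and 13 of the 39 other pathway and regulator genes (those listed other than NADPH users), in place of 8. Some genes changed sign against the deposited scale and were called either as deposited or under the setting that changed it. With poly-A-control centring they were PGLS (0.14), CS (0.16), OGDH (0.041) and POR (0.029). With hybridization-control centring they were ME2 (-0.16) and IDH3B (-0.060), and with classes _at and _a_at only SLC25A1 (0.0070). Other genes were called neither as deposited nor on the scale that changed their sign. With poly-A-control centring these were 5 (H6PD, TKTL2, PGM2, IDH3A and BLVRB), all called lower with hybridization-control centring. With hybridization-control centring they were 3 (TKTL1, ALDH1L1 and TIGAR), all called higher with poly-A-control centring. The cause of the sign changes was not tested. Leaving out 1 array kept 6 of the 7 genes and 15 of their probe sets called lower each time, and gave 29 to 30 other pathway and regulator genes, 9 to 10 NADPH users, 9817 to 10118 genes and 23926 to 24524 probe sets called. Deviations from the group means correlated little between samples with the same replicate number (r = -0.04, 0.07 and 0.01). Samples with different numbers ran from -0.10 to 0.09. With means of 3 arrays such values cannot show whether the numbers pair the samples. With the replicate number as a block 6 of the 7 genes were called; POR lost its call (adjusted p = 0.051 by limma) and TKTL1 gained one (adjusted p = 0.049), as it did with poly-A-control centring, quantile normalization (adjusted p = 0.032), the median over probe sets (adjusted p = 0.043) and without control replicate 3 (adjusted p = 0.018). Robust eBayes changed no call among the 57 genes described.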
